A study of Danio rerio with 14 samples.

Results

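Aminoacyl-tRNA synthetases are the enzymes that load each amino acid onto its transfer RNA, and translation stops where a loaded tRNA is lacking. The cytosol and the mitochondria keep separate sets of these enzymes, both encoded in the nucleus. In mammals, genes of the cytosolic set belong to the targets of ATF4, a transcription factor made when kinases phosphorylate the initiation factor eIF2 under amino acid shortage or stress of the endoplasmic reticulum. ATF4 also switches on asparagine synthetase, enzymes of serine synthesis and the regulators Ddit3, Trib3 and Chac1, so that the group serves as a readout of the amino acid or integrated stress response.

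The genes described were those whose platform or current symbol named an aminoacyl-tRNA synthetase or one of a set of amino acid response genes. The rule found 33 of the 8445 named genes in the deposited table, measured by 57 of its 16913 probes. That table holds fewer probes than the array, and "all genes" and "all probes" refer to those it holds. Of these, 16 were cytosolic synthetases (aars1, cars1, eprs1, farsa, farsb, gars1, hars, iars1, kars1, mars1, qars1, rars1, sars1, tars1, wars1 and yars1) and 5 were mitochondrial ones (cars2, ears2, pars2, rars2 and sars2). Another 10 were amino acid response genes (asns, atf4a, atf4b, chac1, ddit3, mthfd2, phgdh, psat1, psph and trib3). The last 2 met the rule by name only. asnsd1 starts with the symbol of asparagine synthetase, and dtd1, which encodes a D-aminoacyl-tRNA deacylase, carried the older platform symbol hars2. The synthetases measured were 16 of 22 cytosolic and 5 of 17 mitochondrial ones listed, and the others were not analysed here, so that the mitochondrial class rests on a small part of its genes. gars1 and kars1 are known to supply both compartments and were counted as cytosolic.

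The eyes came from larvae of wild-type AB zebrafish exposed from fertilization to 5 dpf (days post fertilization) to 350 mg/L PTU (6-propyl-2-thiouracil), which blocks the synthesis of thyroid hormone, or kept as controls. The 4 groups were PTU eyes and control eyes at 5 dpf, when exposure ended, and PTU eyes and control eyes at 8 dpf, following 3 days of recovery without PTU. Each group had 3 RNA extracts, each pooled from the eyes of 10 larvae raised on a separate plate. The 12 extracts were hybridised in pairs on 14 two-colour arrays. PTU was set against control eyes directly on 6 arrays at 5 dpf and 4 arrays at 8 dpf, and 4 arrays linked the ages. Each linking array carried control replicate 1 or PTU replicate 1 of 5 dpf. These 2 extracts were on 4 arrays each and the other 10 on 2. Levels at 8 dpf relative to 5 dpf therefore run through these 2 extracts. At 8 dpf the direct arrays joined PTU replicate 1 to control replicates 1 and 2, and control replicate 3 to PTU replicates 2 and 3. Levels of these 2 sets relative to each other also run through the linking arrays. Because all values are ratios, levels are given on the log2 scale relative to the mean of the control eyes at 5 dpf, and no level of 1 gene can be set against that of another. "Rose" and "fell" are used for an adjusted p under 0.05 from limma over all 8445 genes.

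The libraries differed in more than the genes described. Among direct arrays at 5 dpf, the log2 ratios of all probes correlated between arrays with r of 0.595 to 0.833. At 8 dpf r was 0.404 to 0.785, a description of arrays that share extracts. At 5 dpf, markers of photoreceptors fell in 4 of 4 measured genes and those of lens in 3 of 3, while macrophage and neutrophil markers rose in 4 of 4 genes at both ages. Over all genes 22.8% fell and 24.2% rose at 5 dpf, and 19.6% rose at 8 dpf. Control replicate 1 at 5 dpf was low in liver and plasma markers (mean log2 level -1.24, against 0.59 and 0.65 in the other controls), and control replicate 3 was low in skeletal muscle markers (-1.04, against 0.11 and 0.93). The eye itself was represented by these photoreceptor and lens genes and by 3 of 3 pigment markers, though ratios do not show how strongly a gene was expressed. In whole eyes, fewer cells of a type and less RNA per cell cannot be told apart.

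At 5 dpf, all 16 cytosolic synthetases rose in PTU eyes and none fell. Their log2 fold changes ran from 0.36 for yars1 to 1.58 for eprs1, with a median of 0.72. Over all genes, 24.2% rose and 22.8% fell, with a median of -0.0014. The mitochondrial synthetases stayed close to the median of all genes, with a class median of 0.03, 2 of 5 genes that rose (pars2 and ears2) and none that fell. Of the 10 amino acid response genes, 7 rose and 1 fell, with a median of 0.48. Counting dtd1, which rose, and asnsd1, which did not pass the test, 26 of the 33 genes rose, 1 fell and 6 did not pass.

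eprs1 encodes the enzyme that loads both glutamate and proline. Its log2 levels were 1.67, 1.46 and 1.63 in PTU eyes and 0.07, -0.05 and -0.03 in control eyes at 5 dpf. The lowest PTU extract lay far above the highest control. The fold change was 2.99 (log2 1.58 ± 0.0649, SE, adjusted p = 2.73e-10, limma), higher than that of 99.5% of all genes. iars1, the isoleucine enzyme, had levels of 1.39, 1.20 and 1.35 in PTU eyes and 0.02, 0.00 and -0.02 in control eyes. The control extracts of iars1 lay close together, and its 3 probes gave nearly the same change, 1.25 to 1.31. The fold change was 2.44 (log2 1.29 ± 0.0766, adjusted p = 8.15e-09).

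qars1, the glutamine enzyme, had levels of 1.098, 0.945 and 1.102 in PTU eyes and 0.07, -0.09 and 0.02 in control eyes, a 2.06-fold rise (log2 1.04 ± 0.0571, adjusted p = 3.41e-09). tars1, the threonine enzyme, had levels of 1.05, 0.61 and 1.34 in PTU eyes and 0.16, -0.26 and 0.10 in control eyes. Its groups did not overlap either, but both were spread widely, with an SD of 0.37 in PTU eyes and 0.22 in control eyes. The rise of tars1 was 1.00 ± 0.119 on the log2 scale (adjusted p = 6.97e-06). rars1, the arginine enzyme, had levels of 1.00, 0.74 and 1.14 in PTU eyes and 0.14, -0.11 and -0.03 in control eyes. Its change was a 1.94-fold rise (log2 0.95 ± 0.0822, adjusted p = 2.95e-07).

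The other 11 cytosolic genes rose by 0.36 to 0.95 on the log2 scale. Both chains of the phenylalanine enzyme rose, farsa by 0.95 and farsb by 0.56, as did the genes for methionine (mars1, 0.76), lysine (kars1, 0.73), glycine (gars1, 0.70), alanine (aars1, 0.62), cysteine (cars1, 0.56), serine (sars1, 0.54), tryptophan (wars1, 0.53), histidine (hars, 0.38) and tyrosine (yars1, 0.36). In 15 of the 16 genes every PTU extract lay above every control extract, a pattern found in 26.8% of all genes. hars was the exception, with 0.40, -0.06 and 0.81 in PTU eyes and 0.10, -0.13 and 0.03 in control eyes. Its adjusted p of 0.024 was lost without PTU replicate 1 (0.36), PTU replicate 3 (0.21), control replicate 2 (0.39) or control replicate 3 (0.30), and that of sars1 without PTU replicate 1 (0.47), PTU replicate 3 (0.45) or control replicate 1 (0.51). With 1 level per extract in place of the arrays, an alternative chosen after seeing the data, 14 of the 16 genes passed, without hars and sars1.

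**Figure D1:**
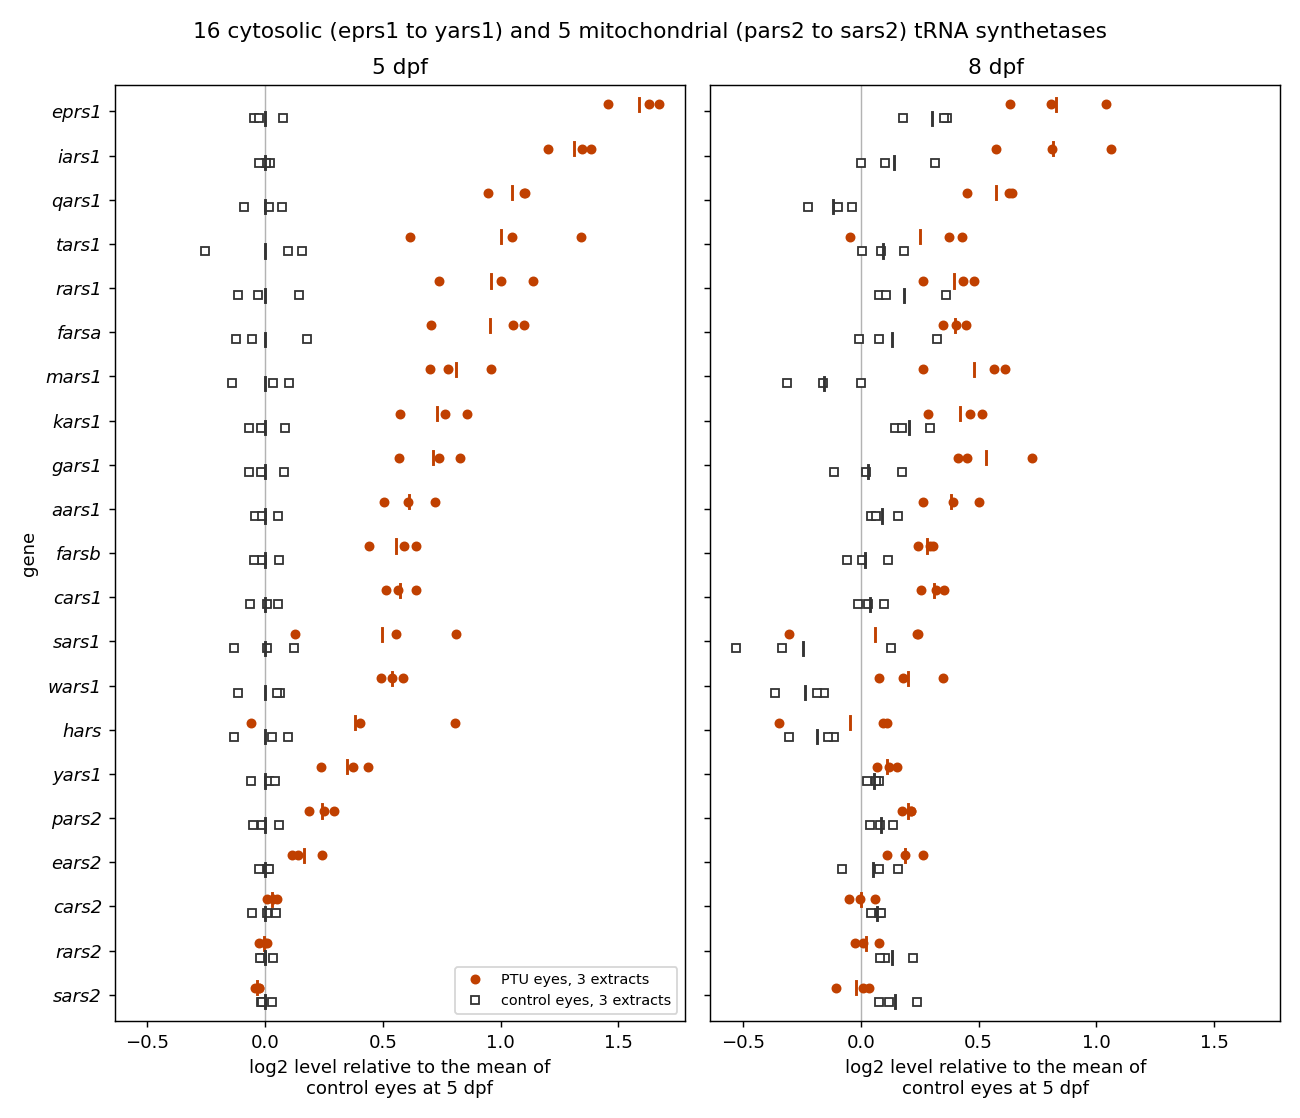
Log2 level of each synthetase gene (rows, sorted by the PTU effect at 5 dpf within the cytosolic and then the mitochondrial class) in the 3 PTU extracts (filled circles) and 3 control extracts (open squares) at 5 dpf and at 8 dpf, relative to the mean of control eyes at 5 dpf; vertical ticks are group means. At 5 dpf the PTU extracts of 15 of 16 cytosolic genes lie right of all control extracts, with hars overlapping, and the 5 mitochondrial genes lie near 0 in both groups.

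The cytosolic genes also shifted together between extracts of 1 group. Among PTU eyes at 5 dpf, replicate 2 had the lowest level in 15 of the 16 genes and replicate 3 the highest in 12. Among control eyes at 5 dpf, replicate 1 was highest in 14 genes and replicate 2 lowest in 13. The mean over the 16 genes was 0.83, 0.61 and 0.93 in PTU eyes and 0.08, -0.09 and 0.01 in control eyes. This spread was smaller than the gap between the groups, whose nearest extracts were 0.61 and 0.08. It was shared by the class, but not by it alone. The mean of the amino acid response genes had the same order, with 0.52, 0.38 and 0.57 in PTU eyes and 0.07, -0.09 and 0.01 in control eyes. That of the mitochondrial genes did not, with 0.11, 0.06 and 0.07 in PTU eyes and 0.005, 0.007 and -0.012 in control eyes. The share of all genes with these orders was not counted.

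Some of the cytosolic enzymes are held together in the multisynthetase complex of animal cells. The 6 measured (eprs1, iars1, kars1, mars1, qars1 and rars1) had a median of 1.00 at 5 dpf, against 0.56 for the 10 outside the complex. The ranges overlapped, from 0.73 to 1.58 in the complex and from 0.36 to 1.00 outside it, and the difference was not tested. Of the proteins that hold the complex together, aimp1a rose by 0.42 (adjusted p = 0.0043), while aimp2 (0.17) and eef1e1 (0.01) did not pass the test. The structural classes of the enzymes were close to each other, with a median of 0.76 for the 7 cytosolic class I genes and 0.66 for the 8 of class II. eprs1 has a part of each and was left out of both.

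The mitochondrial enzymes showed small changes. pars2, the mitochondrial proline enzyme, had levels of 0.29, 0.19 and 0.25 in PTU eyes and -0.01, -0.05 and 0.06 in control eyes at 5 dpf. The groups did not overlap, and the rise was 1.19-fold (log2 0.25 ± 0.0474, adjusted p = 0.000595, limma). ears2, the mitochondrial glutamate enzyme, had levels of 0.24, 0.14 and 0.11 in PTU eyes and 0.01, 0.02 and -0.03 in control eyes. This 1.12-fold rise (log2 0.16 ± 0.0493, adjusted p = 0.0128) was lost without PTU replicate 1 (0.13), control replicate 1 (0.19) or control replicate 3 (0.15) and with 1 level per extract (0.17). The other 3 lay at 0.03 (cars2), -0.0047 (rars2) and -0.04 (sars2), each with a 95% interval that reached no higher than 0.16. Every PTU extract was above every control in 2 of the 5 genes and below in 1 (sars2), beside 26.8% and 25.2% of all genes.

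Where both compartments' enzymes for 1 amino acid were measured, the cytosolic gene had the larger change in each of 5 pairs at 5 dpf. For cysteine the log2 fold changes were 0.56 for cars1 and 0.03 for cars2. For arginine they were 0.95 for rars1 and -0.0047 for rars2, and for serine 0.54 for sars1 and -0.04 for sars2. The cytosolic gene eprs1 serves for both glutamate and proline, and its 1.58 stood beside 0.16 for ears2 and 0.25 for pars2. The mean of the cytosolic minus that of the mitochondrial genes was 0.72, 0.55 and 0.86 in PTU eyes and 0.08, -0.09 and 0.02 in control eyes. These differences between the classes were not tested, because the genes had been chosen with results of these data known.

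**Figure D2:**
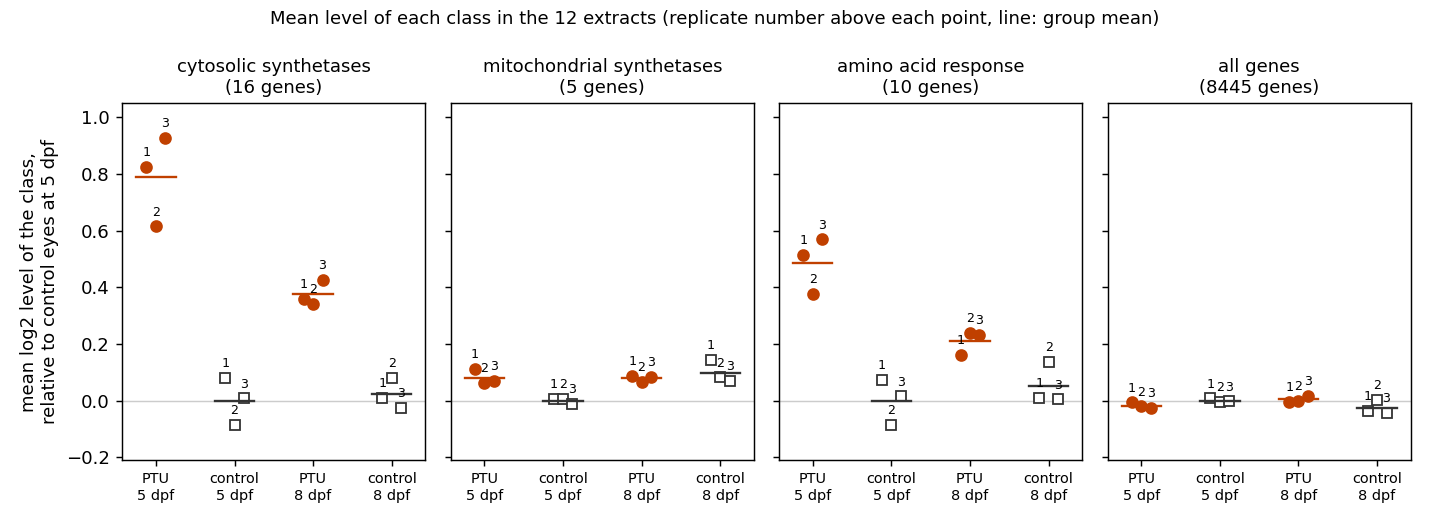
Mean log2 level of each class (y axis, relative to control eyes at 5 dpf) in the 12 extracts, with the replicate number above each point and a line at the mean of each group; filled circles are PTU eyes and open squares control eyes. At 5 dpf the 3 PTU extracts lie between 0.61 and 0.93 for the cytosolic class and between 0.06 and 0.11 for the mitochondrial class.

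Of the regulators, trib3, a pseudokinase that restrains ATF4 signalling in mammals, had the largest change of the 33 genes. Its levels were 1.78, 1.64 and 1.72 in PTU eyes and -0.09, 0.12 and -0.03 in control eyes at 5 dpf. Both groups were narrow and far apart, with a fold change of 3.33 (log2 1.74 ± 0.116, adjusted p = 2.54e-08, limma). atf4b, a zebrafish copy of ATF4, had levels of 0.89, 0.80 and 0.83 in PTU eyes and 0.03, -0.02 and -0.01 in control eyes. It rose 1.80-fold (log2 0.85 ± 0.0506, adjusted p = 8.15e-09), although its 2 probes gave 0.32 and 1.40. The other copy, atf4a, did not pass the test, with levels of 0.09, -0.19 and 0.39 in PTU eyes and 0.19, -0.20 and 0.01 in control eyes, and its 2 probes had opposite signs (-0.21 and 0.38).

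ddit3 encodes CHOP, a transcription factor of the stress response that is tied to cell death. Its levels were 0.74, 0.63 and 0.90 in PTU eyes and 0.03, 0.00 and -0.03 in control eyes at 5 dpf, a 1.68-fold rise (log2 0.75 ± 0.0591, adjusted p = 1.24e-07). chac1, which degrades glutathione, was the most variable of the response genes, with 0.39, 0.18 and 0.83 in PTU eyes and 0.28, -0.10 and -0.18 in control eyes. The groups of chac1 overlapped. Its rise of 0.50 ± 0.189 (adjusted p = 0.0396) was lost when any of 7 extracts was left out (0.37 to 0.59), with the replicate number as a block (0.48) and with 1 level per extract (0.47).

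Among the enzymes of amino acid synthesis, asns makes asparagine. Its levels were 0.55, 0.36 and 0.51 in PTU eyes and -0.09, -0.06 and 0.15 in control eyes at 5 dpf, a 1.37-fold rise (log2 0.45 ± 0.078, adjusted p = 0.00022). mthfd2, a mitochondrial enzyme of one-carbon metabolism, had levels of 0.62, 0.52 and 0.52 in PTU eyes and 0.11, -0.24 and 0.13 in control eyes, a rise of 0.54 ± 0.0809 (adjusted p = 6.21e-05). The groups of both genes were apart.

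The 3 enzymes of serine synthesis went separate ways at 5 dpf. phgdh, the first, had levels of -0.17, -0.27 and -0.23 in PTU eyes and 0.14, -0.19 and 0.05 in control eyes. It was the only gene of the 33 that fell, by 0.24 on the log2 scale (SE 0.0788, adjusted p = 0.0222), with overlapping groups and a call that was lost when any of 5 extracts was left out (-0.28 to -0.14). psat1, the second, had levels of 0.24, 0.11 and 0.27 in PTU eyes and 0.04, -0.13 and 0.09 in control eyes. Its rise of 0.21 ± 0.0817 only just passed (adjusted p = 0.0493) and was lost when any of 8 extracts was left out (0.16 to 0.24) and with the replicate number as a block (0.21). psph, the last, had levels of 0.04, -0.01 and -0.05 in PTU eyes and 0.06, -0.03 and -0.03 in control eyes, with no detectable difference (95% interval of the log2 fold change -0.14 to 0.14).

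**Figure D3:**
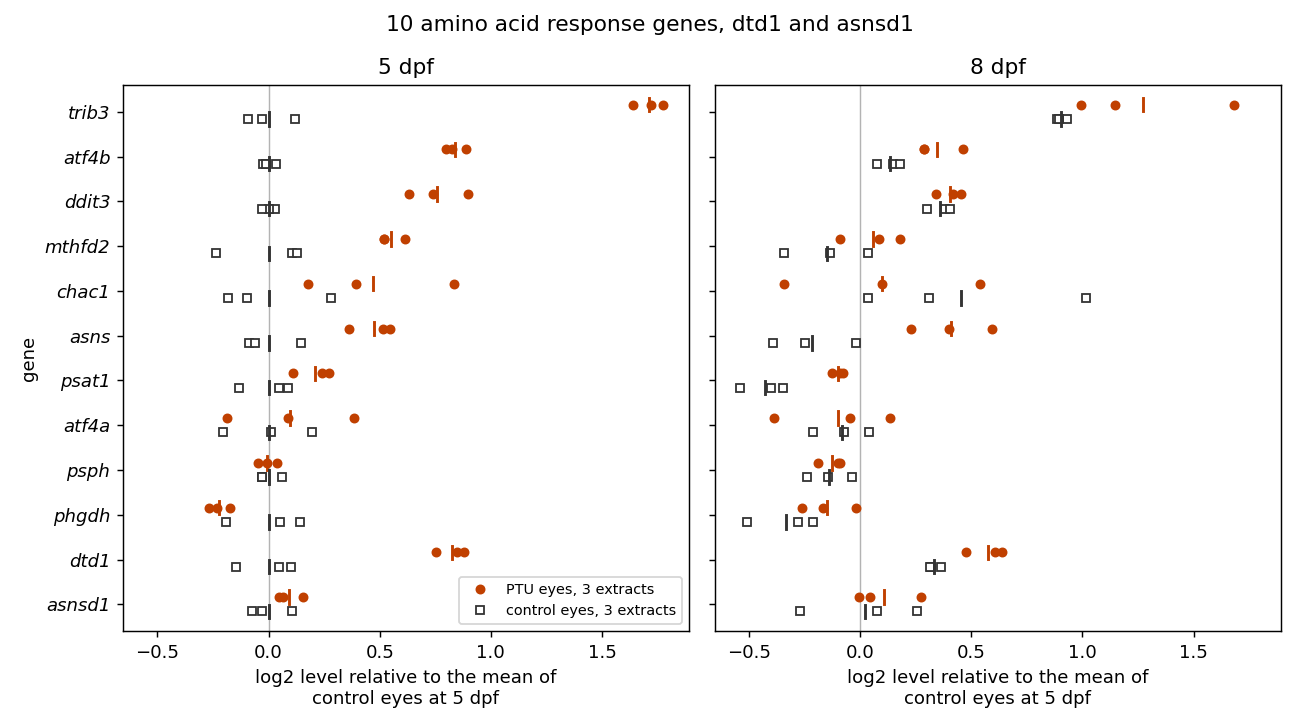
Log2 level of the 10 amino acid response genes and of dtd1 and asnsd1 (rows) in the 3 PTU extracts (filled circles) and 3 control extracts (open squares) at 5 dpf and at 8 dpf, relative to the mean of control eyes at 5 dpf; ticks are group means. trib3 lies at 1.64 to 1.78 in PTU eyes at 5 dpf and at 0.89 to 0.93 in control eyes at 8 dpf, while psph lies near 0 in both groups at 5 dpf.

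Of the 2 genes that met the rule by name, dtd1, whose enzyme removes wrongly loaded D-amino acids from tRNA, had levels of 0.85, 0.75 and 0.88 in PTU eyes and 0.05, -0.15 and 0.10 in control eyes at 5 dpf. It rose 1.77-fold (log2 0.82 ± 0.0553, adjusted p = 2.6e-08). asnsd1 lay at 0.08 (95% interval -0.09 to 0.26) and did not pass the test.

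Lists of related genes gave the surroundings of these changes. Of 25 listed kinases, phosphatase subunits and partner factors of the integrated stress response, 15 were measured, of which 12 rose (80%) and 2 fell (13.3%) at 5 dpf, beside 24.2% and 22.8% of all genes (median 0.34). The largest changes were in atf3 (3.81) and cebpb (2.58), both transcription factors that also answer to other stress and inflammatory signals. eif2ak3, the kinase PERK of the endoplasmic reticulum, rose by 1.08, and ppp1r15a, which reverses eIF2 phosphorylation, by 0.46. The ATF4 partner cebpg rose by 0.66, and xpot, which exports tRNA from the nucleus, by 0.27. The 2 that fell were eif2s1b (-0.40), which encodes a copy of the eIF2 subunit that is phosphorylated, and eif4ebp3 (-0.37). The other copy, eif2s1a, rose by 0.25.

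Amino acid transporters and other enzymes of amino acid synthesis moved in both directions. Of 41 listed, 22 were measured, of which 10 rose (45.5%) and 3 fell (13.6%) at 5 dpf, beside 24.2% and 22.8% of all genes (median 0.11). slc1a4, a carrier of small neutral amino acids, rose by 1.64, while got2a, a mitochondrial aspartate aminotransferase, fell by 0.92 and got1, the cytosolic one, by 0.35. cbsb and cth, which turn homocysteine into cysteine, rose by 0.51 and 0.45.

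Of the partners of the synthetases in mitochondrial translation and protein quality control, 12 of 19 listed genes were measured, of which 4 rose (33.3%) and 2 fell (16.7%) at 5 dpf (median 0.05), shares near the 24.2% and 22.8% of all genes. The elongation factors gfm1 and tufm rose by 0.93 and 0.47, and the matrix proteases lonp1 and clpp by 0.86 and 0.37. gatc, part of the enzyme that makes glutamine-loaded tRNA in mitochondria, fell by 0.30, and clpxa, the partner of clpp, by 0.34. Of 24 measured factors of cytosolic elongation and initiation, out of 29 listed, 12 rose (50%) and 5 fell (20.8%), beside 24.2% and 22.8% of all genes (median 0.16). All 5 measured subunits of eIF2B, the exchange factor of eIF2, rose, by 0.18 (eif2b4) to 0.35 (eif2b1), and eef1a1a fell by 1.50.

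At 8 dpf, the cytosolic synthetases were still up in PTU eyes, but by less. Of the 16 genes, 11 rose and none fell, with a median log2 fold change of 0.28 and a range from 0.06 for yars1 to 0.71 for qars1. Over all genes 19.6% rose and 13.2% fell, with a median of 0.0076. hars, rars1, sars1, tars1 and yars1 did not pass the test. Of the mitochondrial genes 1 rose (ears2) and 1 fell (sars2), with a median of -0.07, and of the amino acid response genes 4 rose and none fell, with a median of 0.20.

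qars1 had the largest rise of the synthetases at 8 dpf, with levels of 0.63, 0.45 and 0.64 in PTU eyes and -0.10, -0.04 and -0.22 in control eyes (1.63-fold, log2 0.71 ± 0.0633, adjusted p = 8.47e-07, limma). iars1 had levels of 1.06, 0.57 and 0.81 in PTU eyes and 0.32, 0.00 and 0.10 in control eyes, a rise of 0.70 ± 0.0848 (adjusted p = 1.62e-05). mars1, the methionine enzyme, had levels of 0.61, 0.27 and 0.57 in PTU eyes and 0.00, -0.31 and -0.16 in control eyes, a rise of 0.65 ± 0.094 (adjusted p = 8.54e-05). In each of these 3 genes the groups were apart, although the PTU extracts were spread more widely than at 5 dpf. The spread at 8 dpf includes the error of the linking arrays. eprs1 had levels of 1.04, 0.63 and 0.81 in PTU eyes and 0.37, 0.35 and 0.18 in control eyes, and rose 1.47-fold (log2 0.56 ± 0.0718, adjusted p = 3.06e-05).

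Every PTU extract lay above every control extract in 10 of the 16 cytosolic genes at 8 dpf, beside 20.6% of all genes. Some of these comparisons ran through the linking arrays, whose error enters both values. No replicate of a group was the lowest or the highest throughout: the lowest PTU level was in replicate 2 for 9 genes and in replicate 1 for 5. tars1, among those that did not pass, had -0.04, 0.43 and 0.37 in PTU eyes and 0.01, 0.19 and 0.09 in control eyes. Of the calls that only just passed, kars1 (0.20, adjusted p = 0.0457) was lost when any of 9 extracts was left out (0.14 to 0.21) and farsa (0.28, adjusted p = 0.0459) when any of 7 was (0.20 to 0.32). Without control replicate 2 or 3 or PTU replicate 3 of 5 dpf, the kars1 call was lost although its estimate stayed at 0.205. The calls of kars1 and farsa were also lost with the replicate number as a block (kars1 0.21, farsa 0.27). With 1 level per extract 9 cytosolic genes passed, without kars1 and farsa.

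For the mitochondrial genes the changes at 8 dpf were as small as at 5 dpf. ears2 had levels of 0.26, 0.11 and 0.19 in PTU eyes and 0.16, 0.08 and -0.08 in control eyes, with overlapping groups (log2 0.15 ± 0.0546, adjusted p = 0.0416). sars2 had levels of 0.03, -0.11 and 0.01 in PTU eyes and 0.24, 0.08 and 0.12 in control eyes, and fell by 0.16 (SE 0.0534, adjusted p = 0.0345). The ears2 call was lost when any of the 12 extracts was left out (0.10 to 0.19) and the sars2 call when any of 9 was (-0.17 to -0.12). Some of these losses came with no change of the estimate. Without replicate 2 or 3 of PTU or control eyes at 5 dpf, ears2 stayed at 0.155. Without control replicate 2 or 3 or PTU replicate 2 of 5 dpf, sars2 stayed at -0.158. Both calls were lost with the replicate number as a block as well (ears2 0.15, sars2 -0.16). Every PTU extract was above every control in 1 mitochondrial gene and below in 2 (rars2 and sars2), beside 20.6% and 14.7% of all genes. The serine pair had opposite signs, 0.28 for sars1, which did not pass, and -0.16 for sars2. So did the cysteine pair, 0.28 for cars1 and -0.07 for cars2, and the arginine pair, 0.23 for rars1 and -0.13 for rars2. cars2, rars1 and rars2 did not pass the test. For glutamate and proline the signs were the same, with 0.56 for eprs1 beside 0.15 for ears2 and 0.12 for pars2.

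asns had the largest change of the response genes at 8 dpf. Its levels were 0.40, 0.23 and 0.59 in PTU eyes and -0.02, -0.39 and -0.25 in control eyes, a 1.54-fold rise (log2 0.63 ± 0.0863, adjusted p = 5.67e-05). psat1 had levels of -0.09, -0.13 and -0.08 in PTU eyes and -0.40, -0.35 and -0.54 in control eyes, a rise of 0.34 ± 0.0904 (adjusted p = 0.00953) between groups that did not overlap. Its 2 probes gave -0.0068 and 0.69. trib3 had levels of 1.68, 1.15 and 0.99 in PTU eyes and 0.89, 0.93 and 0.89 in control eyes. The high PTU replicate 1 carried much of that rise (log2 0.41 ± 0.128, adjusted p = 0.0231), which without it was 0.17 and did not pass. The call was also lost without control replicate 1 (0.31) or control replicate 2 (0.38) of 8 dpf and without control replicate 1 of 5 dpf (0.39). atf4b rose by 0.20 ± 0.056 (adjusted p = 0.0123), with probes at -0.07 and 0.47, and its call was lost without PTU replicate 2 (0.16), control replicate 1 (0.18) or control replicate 3 (0.21) of 8 dpf or control replicate 1 of 5 dpf (0.18).

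The remaining response genes did not pass at 8 dpf. ddit3 lay at 0.34, 0.46 and 0.42 in PTU eyes and 0.38, 0.30 and 0.40 in control eyes, and chac1 at -0.34, 0.54 and 0.10 in PTU eyes and 0.03, 1.02 and 0.31 in control eyes. The extracts of chac1 were widely spread in both groups, with an SD of 0.44 in PTU eyes and 0.51 in control eyes. dtd1 still rose, by 0.24 ± 0.0613 (adjusted p = 0.00853), a call lost without PTU replicate 3 (0.20) or control replicate 3 (0.19). Of the 15 measured genes of the integrated stress response list, 4 rose at 8 dpf (atf3, cebpb, eif2ak3 and eif4ebp1) and none fell, a share of 26.7% that was close to the 19.6% of all genes.

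The PTU effect was smaller at 8 than at 5 dpf for most of the cytosolic synthetases. The difference of the effects passed the test in 17 of the 33 genes, of which 16 had a lower effect at 8 dpf and 1 a higher one, beside 6.92% and 11.9% of all genes. The 16 were 11 cytosolic synthetases, 4 response genes and dtd1. No mitochondrial gene passed, with differences between -0.13 and -0.01.

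trib3 had the largest difference of these effects, 0.41 at 8 dpf against 1.74 at 5 dpf (difference -1.33 ± 0.172, adjusted p = 0.000155, limma). Of the synthetases eprs1 had the largest, 0.56 at 8 dpf against 1.58 at 5 dpf (-1.02 ± 0.0968, adjusted p = 1.44e-05). tars1 followed with 0.13 at 8 dpf against 1.00 at 5 dpf (-0.87 ± 0.178, adjusted p = 0.00395), and rars1 with 0.23 against 0.95 (-0.73 ± 0.123, adjusted p = 0.00108). In eprs1, tars1 and rars1 most of the rise at 5 dpf was no longer seen at 8 dpf. PTU eyes themselves were lower at 8 than at 5 dpf in these synthetases (-0.81, -0.78 and -0.62, each passing the test). For trib3 the change in PTU eyes was -0.49 and did not pass (adjusted p = 0.053, limma), while control eyes were higher by 0.83 at 8 dpf. The PTU effect was also lower at 8 dpf for ddit3 (0.03 at 8 dpf against 0.75 at 5 dpf, difference -0.72 ± 0.0881, adjusted p = 9.95e-05) and atf4b (0.20 against 0.85, difference -0.65 ± 0.0755, adjusted p = 6.63e-05). dtd1 differed by -0.59 ± 0.0826 (adjusted p = 0.000269), kars1 by -0.53 ± 0.0995 (adjusted p = 0.00237), iars1 by -0.58 ± 0.114 (adjusted p = 0.00299) and farsa by -0.67 ± 0.136 (adjusted p = 0.00368).

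The other 5 cytosolic synthetases did not pass this test. The effects were 0.65 at 8 dpf against 0.76 at 5 dpf for mars1 (95% interval of the difference -0.38 to 0.16), 0.46 against 0.53 for wars1 (-0.24 to 0.11) and 0.49 against 0.70 for gars1 (-0.54 to 0.12). They were 0.12 against 0.38 for hars (-0.66 to 0.15) and 0.28 against 0.54 for sars1 (-0.74 to 0.22), whose intervals were wide. Nor did asns pass, with 0.63 at 8 dpf against 0.45 at 5 dpf (-0.07 to 0.42). phgdh was the only gene whose higher effect at 8 dpf passed the test, with 0.19 against -0.24 at 5 dpf (0.43 ± 0.118, adjusted p = 0.0203). From 5 to 8 dpf phgdh changed by -0.36 in control eyes and by 0.07 in PTU eyes. The change in PTU eyes did not pass (adjusted p = 0.746, limma), so the lower control level enters this difference. The calls of qars1, tars1, aars1, phgdh, farsb, cars1, yars1 and chac1 were lost when some single extract was left out, for qars1 (-0.30) and tars1 (-0.81) this being PTU replicate 1 of 5 dpf. With 1 level per extract, 9 genes kept a lower effect and none a higher one.

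**Figure D4:**
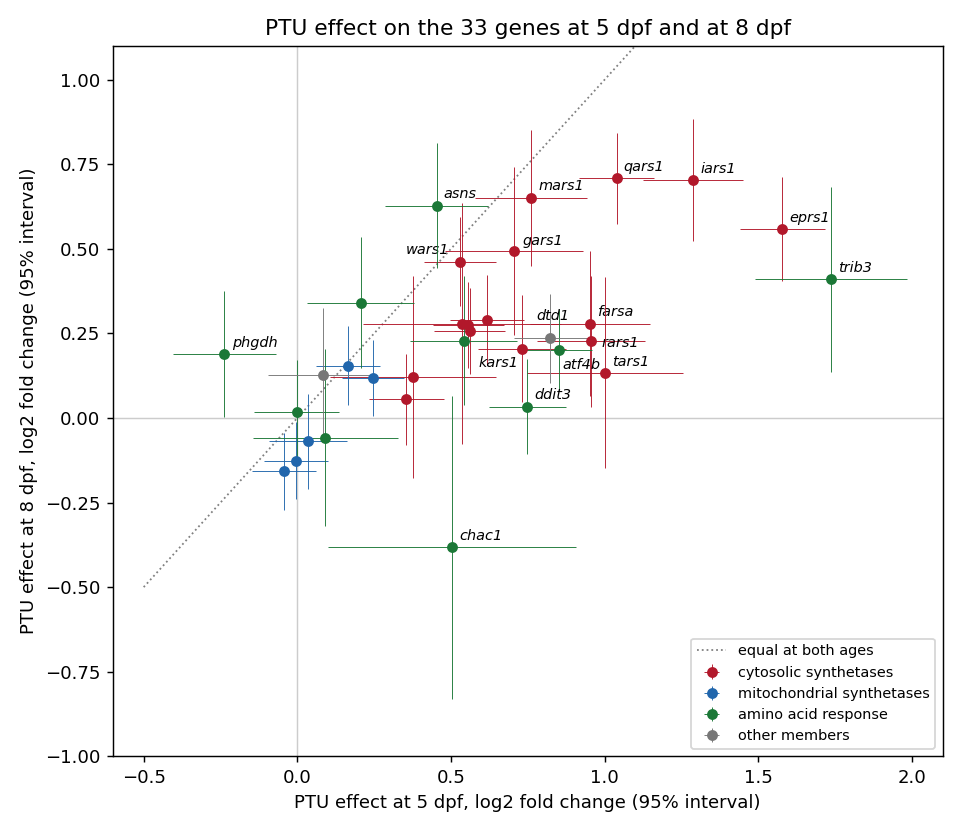
PTU effect of each of the 33 genes at 5 dpf (x axis) and at 8 dpf (y axis) as log2 fold changes with 95% intervals, coloured by class; the dotted line marks equal effects. eprs1 (1.58 at 5 dpf and 0.56 at 8 dpf) and trib3 (1.74 and 0.41) lie far below the line, asns (0.45 and 0.63) and phgdh (-0.24 and 0.19) above it, and the mitochondrial genes cluster near 0.

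The ages were also compared within each treatment. In PTU eyes, 16 of the 33 genes were lower at 8 than at 5 dpf and none was higher, beside 6.69% and 8.77% of all genes. 12 of these were cytosolic synthetases, led by eprs1 (-0.81, adjusted p = 6.9e-05) and tars1 (-0.78, adjusted p = 0.00604), and the class mean was 0.36, 0.34 and 0.43 at 8 dpf against 0.83, 0.61 and 0.93 at 5 dpf. In control eyes, 3 of the 33 genes were higher at 8 than at 5 dpf and 3 were lower, beside 4.67% and 7.05% of all genes. The cytosolic class mean of control eyes hardly moved, with 0.01, 0.08 and -0.02 at 8 dpf against 0.08, -0.09 and 0.01 at 5 dpf. These comparisons share their extracts with those of PTU against control. They rest on the 4 linking arrays, each of which carried replicate 1 of the PTU or control eyes at 5 dpf.

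The control genes that did change included the regulators. trib3 was higher in control eyes at 8 dpf, with 0.89, 0.93 and 0.89, than at 5 dpf, with -0.09, 0.12 and -0.03 (0.83 ± 0.162, adjusted p = 0.00384, limma). ddit3 was higher by 0.36 ± 0.0828 (adjusted p = 0.0107) and dtd1 by 0.33 ± 0.0775 (adjusted p = 0.0123). For these 3 genes a higher control level at 8 dpf enters the difference of the PTU effects. Lower in control eyes at 8 than at 5 dpf were psat1 (-0.44, adjusted p = 0.0199), phgdh (-0.36, adjusted p = 0.0473) and wars1 (-0.30, adjusted p = 0.0217). For ddit3, psat1 and wars1 this change came mainly from 1 of 2 probes. The probes gave 0.57 and 0.15 for ddit3, -0.76 and -0.14 for psat1, and -0.58 and -0.05 for wars1. trib3, dtd1 and phgdh had 1 probe each.

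The single probes were also tested at the thresholds of the study's methods, an adjusted p under 0.05 over all probes and an absolute log2 fold change over 0.75, with arrays taken as independent. At 5 dpf, 22 of the 57 probes were higher in PTU eyes and none was lower, beside 3.93% and 4.88% of all probes. At 8 dpf only 1 of the 57, a wars1 probe, was higher and none was lower, beside 3.83% and 2.57%. Without a fold threshold 49 probes were higher and 1 lower at 5 dpf, beside 25.4% and 24.8% of all probes. At 8 dpf, 24 were higher and 3 lower, beside 18.3% and 15%.

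Several genes had probes that differed in size of change. The 2 probes of wars1, the tryptophan enzyme, gave 0.24 and 0.82 at 5 dpf, and 0.04 and 0.89 at 8 dpf, so that the gene value of 0.46 at 8 dpf came mainly from 1 probe. The 4 probes of kars1 ran from 0.21 to 1.04 at 5 dpf and from -0.03 to 0.58 at 8 dpf. Of the 18 genes with more than 1 probe, 1 had probes of opposite sign at 5 dpf (atf4a) and 5 did at 8 dpf (atf4a, atf4b, ddit3, kars1 and psat1). Which transcripts the probes of a gene detect was not examined. With the most variable probe of each gene in place of the mean, the cytosolic median was 0.89 at 5 dpf and 0.50 at 8 dpf. That probe was picked by its spread over the same ratios, which favours probes with large changes, so these medians are no separate support.

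**Figure D5:**
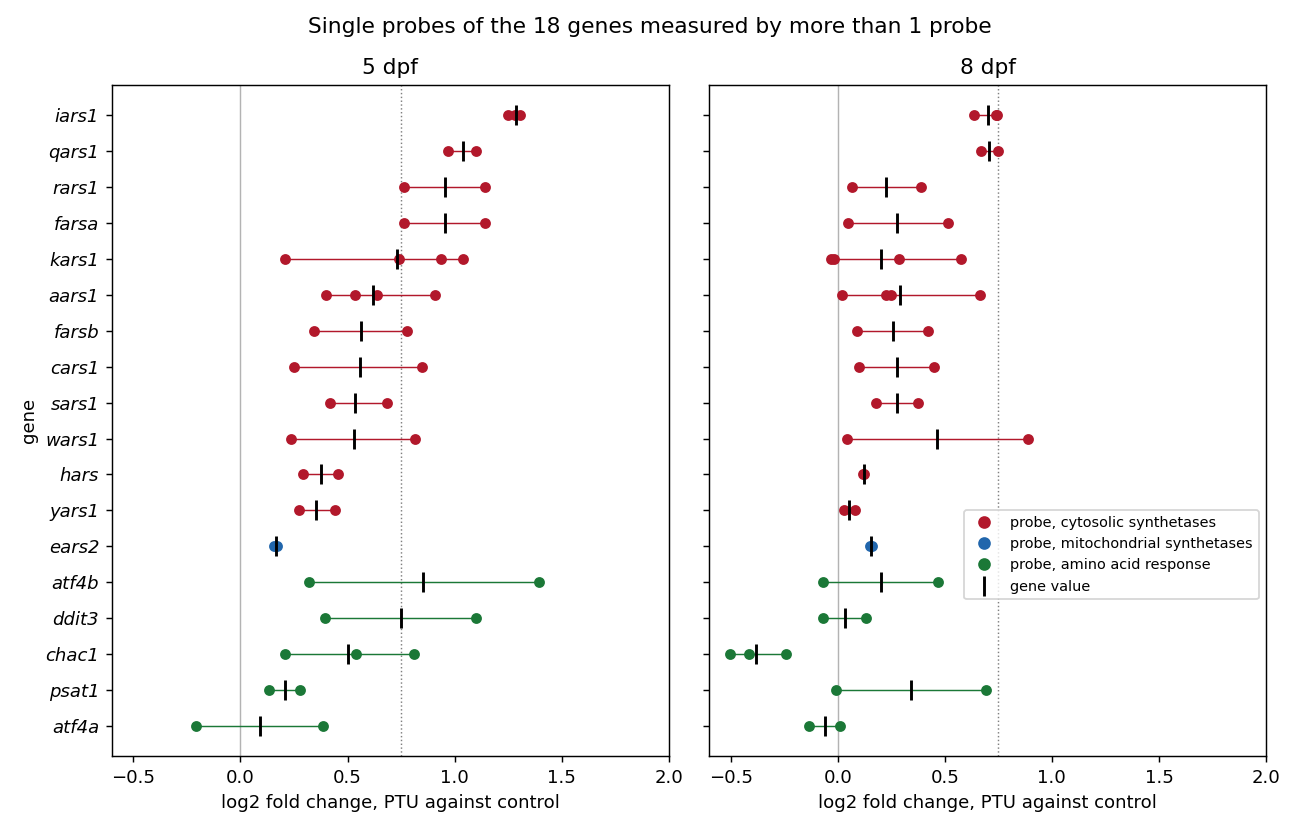
Log2 fold change of PTU against control for each probe (points) of the 18 genes with more than 1 probe at 5 dpf and at 8 dpf; black ticks are the gene values, and the dotted line is the threshold of 0.75. The 3 iars1 probes lie between 1.25 and 1.31 at 5 dpf, while those of atf4b lie at 0.32 and 1.40.

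Other features of the extracts moved with treatment. The mean log2 level of the 4 measured macrophage and neutrophil markers, of 6 listed, was 1.04 to 1.18 in PTU eyes and -0.11 to 0.07 in control eyes at 5 dpf, and 1.39 to 1.63 in PTU eyes and 0.06 to 0.19 in control eyes at 8 dpf. That of the 4 measured photoreceptor markers, of 6 listed, was -1.65 to -1.26 in PTU eyes and -0.38 to 0.21 in control eyes at 5 dpf. The macrophage and neutrophil markers rose in 4 of 4 genes at both ages, with a median effect of 1.40 at 8 dpf and 1.15 at 5 dpf. The effects on eye markers and on the cytosolic synthetases (median 0.28 at 8 dpf and 0.72 at 5 dpf) changed with age, but not always in the same groups. The cytosolic mean went from 0.79 at 5 dpf to 0.37 at 8 dpf in PTU eyes, and was 0.02 in control eyes at 8 dpf. The lens mean went from -2.15 to -0.58 in PTU eyes, and was -0.27 in control eyes at 8 dpf. The photoreceptor mean stayed at -1.45 and -1.44 in PTU eyes, and was -0.91 in control eyes at 8 dpf. The pigment mean went from -0.18 to 0.12 in PTU eyes, and was -0.58 in control eyes at 8 dpf. The lens median was -0.33 at 8 dpf and -2.13 at 5 dpf, and the photoreceptor median was -0.44 at 8 dpf and -1.53 at 5 dpf. By the test of the difference, the effect was higher at 8 than at 5 dpf in 3 of 3 lens, 3 of 4 photoreceptor and 3 of 3 pigment markers. Over all genes this share was 11.9%. Pigment markers had 1 gene that rose and 2 that fell at 5 dpf, and 1 that rose and none that fell at 8 dpf. Skin markers fell in 2 of 3 genes at both ages, with a median of -0.55 at 8 dpf and -0.91 at 5 dpf. Liver and plasma markers fell in 4 of 4 genes at 5 dpf, skeletal muscle markers rose in 1 of 6 and red blood cell markers in 1 of 4. The part of any of these cells in the synthetase result was not tested. Control replicates 1 and 3 at 5 dpf stood apart in some of these markers. Of the cytosolic calls at 5 dpf, only that of sars1 was lost without control replicate 1, and only that of hars without control replicate 3. Leaving out any single extract gave 14 to 16 cytosolic genes that rose at 5 dpf. Such fits keep the marker differences between PTU and control eyes, so they do not test the part of those cells.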

How the data were processed

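The 12 eye extracts were labelled with Cy3 or Cy5 and compared on 14 Agilent arrays for zebrafish. The authors quantified spots in GenePix Pro and removed those that on no array exceeded their local background by 2 SD. They then applied normexp background correction and a loess normalization within arrays, using limma 3.34.4. The deposited unit is a log2 ratio, Cy5 over Cy3; the base and direction were taken from the methods and the dyes of the labels, since the table states neither. No intensities were used, so signal over background is unknown here. Precision depends on the number of arrays and on the spread between the 3 extracts of a group.

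Probes were named through RefSeq accessions (11865), current symbols (1446), older symbols (391) or the platform's symbol (6) with the GRCz12tu gene table, which gave 13708 named probes of 8445 genes. A gene's probes were averaged. limma 3.58.1 in R 4.3.3 fitted group coefficients over all arrays, with the extract as a random effect (variance ratio 0.138, a single REML estimate shared by all genes), 11 residual and 3.69 prior degrees of freedom, and Benjamini-Hochberg adjustment over all genes. The standard errors are those of this model over 14 arrays and understate the error of genes whose extracts differed by more than that ratio allows. Levels per extract were least-squares estimates, and figures were drawn with Python 3.11.15 and matplotlib 3.10.9. Steps were tested on simulated data.

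The genes, lists and tests were chosen with earlier results of these data known. Per-extract values are given for the 5 largest rises of cytosolic synthetases at 5 dpf, mitochondrial synthetases that passed, the amino acid response genes, up to 8 genes whose effect differed between the ages, and the pairs for 1 amino acid. Of other lists, up to 3 members with the smallest p belong to the rule. Further members named from those lists, and mars1, wars1, gars1, hars and dtd1 at the places where their values are singled out, were chosen after their values were seen. The closing section lists each alternative with its effect. The arrays of TBBPA exposure and the sequences of the genes were not analysed here.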

Additional observations from a re-analysis of the deposited data

Results flagged for a closer look

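For 17 of the 33 genes the PTU effect at 8 dpf differed from that at 5 dpf by limma's test of the difference itself (adjusted p under 0.05). Each difference is the log2 fold change at 8 dpf minus that at 5 dpf. Among the cytosolic synthetases it was -1.02 for eprs1, -0.87 for tars1, -0.73 for rars1, -0.67 for farsa, -0.58 for iars1 and -0.53 for kars1. It was smaller for qars1 (-0.33), aars1 (-0.33), farsb (-0.30), yars1 (-0.30) and cars1 (-0.28). Among the response genes it was -1.33 for trib3, -0.89 for chac1, -0.72 for ddit3 and -0.65 for atf4b, and dtd1 had -0.59. phgdh was the only one of the 17 with a positive difference, 0.43. Of these 17 genes, 9 passed in every fit that left out 1 extract.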

How the results depend on the processing

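Of the counts and medians per class, the rise of the cytosolic synthetases kept its direction in every setting but the turned signs. Leaving out each extract in turn gave 14 to 16 cytosolic genes that rose at 5 dpf (median 0.67 to 0.77) and 8 to 13 at 8 dpf (median 0.27 to 0.33). In the same fits 1 to 2 mitochondrial genes rose at 5 dpf, 0 to 0 rose and 0 to 1 fell at 8 dpf (median -0.0988 to -0.0295), 5 to 7 response genes rose and 0 to 1 fell at 5 dpf, and 2 to 5 rose at 8 dpf (median 0.0850 to 0.236). A lower effect at 8 dpf was found for 9 to 16 genes and a higher one for 0 to 1, and 18 to 25 probes were higher at 5 dpf and 1 to 5 at 8 dpf. For single genes, 21 of 27 calls at 5 dpf, 8 of 18 at 8 dpf and 9 of 17 differences remained in every such fit. At 8 dpf, some calls were lost in only 1 of these fits. Without control replicate 3 of 8 dpf these were gars1 (0.46, against 0.49 with all extracts) and psat1 (0.28 against 0.34). Without PTU replicate 1 of 8 dpf it was farsb (0.21 against 0.26). sars1 passed at 8 dpf without PTU replicate 1 (0.53) or control replicate 2 (0.53) of 8 dpf.

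An absolute log2 fold change over 0.75 left 7 cytosolic, 0 mitochondrial and 2 response genes that rose and 0 response genes that fell at 5 dpf, 0 genes of any class at 8 dpf, and 4 genes with a lower and 0 with a higher effect at 8 dpf. An adjusted p under 0.01 left 1 mitochondrial gene that rose and 0 response genes that fell at 5 dpf, 2 response genes that rose and 0 mitochondrial genes in either direction at 8 dpf, and 10 genes with a lower and 0 with a higher effect. With only the arrays of PTU against control at the same age, 0 response genes fell at 5 dpf, 0 mitochondrial genes rose or fell at 8 dpf, and 10 genes had a lower and 0 a higher effect. With the most variable probe the cytosolic median was 0.89 at 5 dpf and 0.50 at 8 dpf, 0 mitochondrial genes rose at 8 dpf, and 10 genes had a lower effect. With arrays scaled to the same spread 0 mitochondrial genes rose at 8 dpf, and with arrays taken as independent 2 fell. With 1 level per extract, an alternative chosen after seeing the data, 1 mitochondrial gene rose and 0 response genes fell at 5 dpf, 0 mitochondrial genes rose or fell and 2 response genes rose at 8 dpf, and 9 genes had a lower and 0 a higher effect; 6 calls at 5 dpf, 7 at 8 dpf and 8 differences were lost. For probes, no fold threshold gave 49 higher and 1 lower at 5 dpf and 24 higher and 3 lower at 8 dpf, and a threshold of 1 gave 12 higher at 5 dpf and 0 at 8 dpf. Fewer genes pass a stricter threshold by construction. The most variable probe was picked by its spread over these same ratios, which favours probes with large changes. For the other settings the cause was not tested. Shares of all genes were not counted in the alternative settings, the fits without 1 extract included. Nor were those of all probes at a threshold of 1. These counts thus do not show how unusual the members are.

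Turning all signs, as if the dyes were exchanged, mirrors every value by construction and tests nothing. The cytosolic medians were then -0.72 at 5 dpf and -0.28 at 8 dpf, the mitochondrial ones -0.0348 and 0.0686, and the response ones -0.48 and -0.20. The counts changed sides with them. At 5 dpf, 16 cytosolic genes fell and 0 rose, 2 mitochondrial genes fell and 0 rose, and 7 response genes fell and 1 rose. The 8 dpf counts were 11 cytosolic genes that fell and 0 that rose, and 4 response genes that fell and 0 that rose. In the difference, 1 gene was lower and 16 were higher.

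Whether the replicate numbers of the labels paired the extracts could not be decided, because estimates of extracts that share arrays are not independent. Deviations of PTU and control extracts of the same number correlated over all genes with r of -0.187, 0.135 and -0.0919 at 5 dpf and 0.627, 0.172 and -0.221 at 8 dpf, and not every extract correlated best with its own number. With the replicate block, 16 cytosolic, 2 mitochondrial and 5 response genes rose at 5 dpf, 9, 0 and 4 at 8 dpf, 0 mitochondrial genes fell at 8 dpf, and 15 genes had a lower effect at 8 dpf. The block ended the calls of chac1 (0.48) and psat1 (0.21) at 5 dpf, of kars1, farsa, ears2 and sars2 at 8 dpf, and of chac1 in the difference (-0.86). Centring each array on its median, a dye effect, robust moderation and the platform's own gene names moved no count by over 1.5 times. Under the platform's names, however, dtd1 was counted as a mitochondrial synthetase through its older symbol hars2. ears2 and psph did not meet the rule by those names. The mitochondrial counts of that setting therefore cover other genes and do not test those of the class. No signal over background was used, so the probes' detection could not be weighed.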
